A study of Mus musculus with 16 samples.

Results

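The genes described here have symbols that begin with Snrp, Sf3a or Sf3b, Srsf, Hnrnp or Lsm with a number. Most of them encode proteins of the splicing machinery. They were chosen by symbol alone, with no measured value, from a table of unique molecular identifier (UMI) counts for 9443 genes, which held 60 of them. Those 60 were 11 small nuclear ribonucleoprotein (snRNP) genes, 9 genes of the SF3a and SF3b complexes, 10 genes of serine and arginine rich (SR) proteins, 18 heterogeneous nuclear ribonucleoprotein (hnRNP) genes and 12 Sm-like (LSM) genes. All are called splicing genes below, although a choice by symbol also takes in genes with other roles. Lsm10, for example, belongs to the U7 snRNP, which processes histone mRNA. The counts were deep enough to test 6824 genes in all and 54 of the 60, namely 11 snRNP, 8 SF3, 10 SR, 15 hnRNP and 10 LSM genes. Hnrnpa3, Hnrnpd, Hnrnph2, Lsm6, Lsm11 and Sf3b1 were too low to test, with highest counts of 6 to 20 UMI in any library and 36 to 124 UMI over all libraries.

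RNA was measured in 16 bulk libraries of germinal centre B cells from lymph nodes of wild-type mice, in 4 groups of 4. The groups were light zone (LZ) cells after an isotype control antibody, LZ cells after an anti-CD40 antibody, dark zone (DZ) cells after the isotype control and DZ cells after anti-CD40, all at 4 h per the sample titles. The antibodies were given in vivo. CD40 on B cells is the receptor for a signal from helper T cells, which the antibody can mimic. The dose, the number of mice, their age and strain, and the sorting gates are not given in the labels, nor is it said whether the 4 libraries of a group came from separate mice. Every p-value therefore measures only the spread between these libraries.

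The spliceosome removes introns from pre-mRNA. Its U1, U2, U4 and U5 snRNPs each carry a ring of Sm proteins around a small nuclear RNA, and U6 carries a ring of LSM proteins instead. SF3a and SF3b are parts of the U2 snRNP that help it hold the branch point. SR proteins mostly bind exons and promote the use of nearby splice sites, and hnRNPs coat nascent RNA and often oppose them. Activated B cells enlarge before they divide, and Myc, which CD40 signals help to induce, is known to raise genes of RNA production, core snRNP assembly factors among them.

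Library depth was 493131 to 1473415 UMI. Myc, the reference point for the response, rose after anti-CD40 in the LZ from 32.5 ± 13.0 to 268.7 ± 57.7 (CPM, the count scaled for library depth, mean ± SD, n = 4) and in the DZ from 21.9 ± 5.84 to 104.5 ± 40.4 CPM (log2 fold changes 3.05 and 2.26, edgeR adjusted p = 2.23e-06 and 1.10e-04). All 5 B cell markers were present, at a summed 4809 to 6234 CPM in isotype LZ and 4185 to 5041 CPM in anti-CD40 LZ libraries, and at 6018 to 7106 and 6071 to 7068 CPM in the DZ. The germinal centre B cell markers, 4 of 5 in the table, summed to 644 to 1285 CPM in isotype LZ and 342 to 640 CPM in anti-CD40 LZ libraries, and to 931 to 1706 and 584 to 1080 CPM in the DZ. The 5 dark zone markers summed to 322 to 562 and 152 to 202 CPM in the LZ, and to 506 to 788 and 403 to 726 CPM in the DZ. No T cell marker (0 of 7) and no red cell or platelet marker (0 of 7) was in the table, and 1 of 9 myeloid or dendritic markers was, at 0 to 11.8 CPM. Of 8 stromal or follicular dendritic markers, Col1a1, Col1a2, Col3a1, Pdpn, Fdcsp and Cxcl13 were not in the table, and only Cr2 and Pecam1 were. Their sum was 85.4 to 121 CPM in isotype LZ libraries and 37.9 to 54.6 CPM in anti-CD40 LZ libraries, and 41.2 to 59.9 and 32.4 to 60.6 CPM in the DZ. Whether these counts came from such cells or from the B cells was not tested. The summed LZ markers, 4 of 5 in the table, were at 1015 to 1678 CPM in isotype LZ libraries and 3685 to 5047 CPM after anti-CD40. In the DZ they were at 419 to 566 CPM in isotype libraries and 1850.5 to 2954 CPM after anti-CD40. All anti-CD40 DZ libraries thus lay above all isotype LZ libraries in this sum. The 4 markers were Cd83, Cd86, Nfkbia and Bcl2a1d. Their sum rose with the antibody in both zones, so it cannot tell the zone of treated cells from the effect of the antibody. The part of these marker changes in the results below was not tested. In bulk RNA, a change in the mix of cells and a change in RNA per cell cannot be told apart.

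The libraries numbered 4, present in every group, stood apart from the others, and the SR genes were where this showed most. On the log2 scale, number 4 minus the mean of numbers 1 to 3 had a median of -0.82 over the SR genes, while the snRNP genes were at 0.24, the SF3 genes at 0.14, the hnRNP genes at -0.10, the LSM genes at -0.02 and all genes tested at 0.00. Library 4 was the lowest of its group in all 4 groups for 8 of 54 splicing genes, against 10.8% of all genes tested, and the highest in all 4 for 6, against 10%. The 8 were Srsf3, Srsf5, Srsf11, Hnrnpc, Hnrnpdl, Hnrnpk, Hnrnpul2 and Lsm14a, and the 6 were Snrpd1, Snrpf, Sf3a1, Sf3a2, Hnrnpm and Lsm5. Named after their values were seen, Srsf11 was at 128.9 to 153.2 CPM in isotype LZ libraries 1 to 3 and 21.2 CPM in library 4, and Hnrnpk was at 443.7 to 572.4 CPM and 114.6 CPM. Calls and subfamily medians of the splicing genes below are therefore also given without these 4 libraries where they change.

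**Figure D1:**
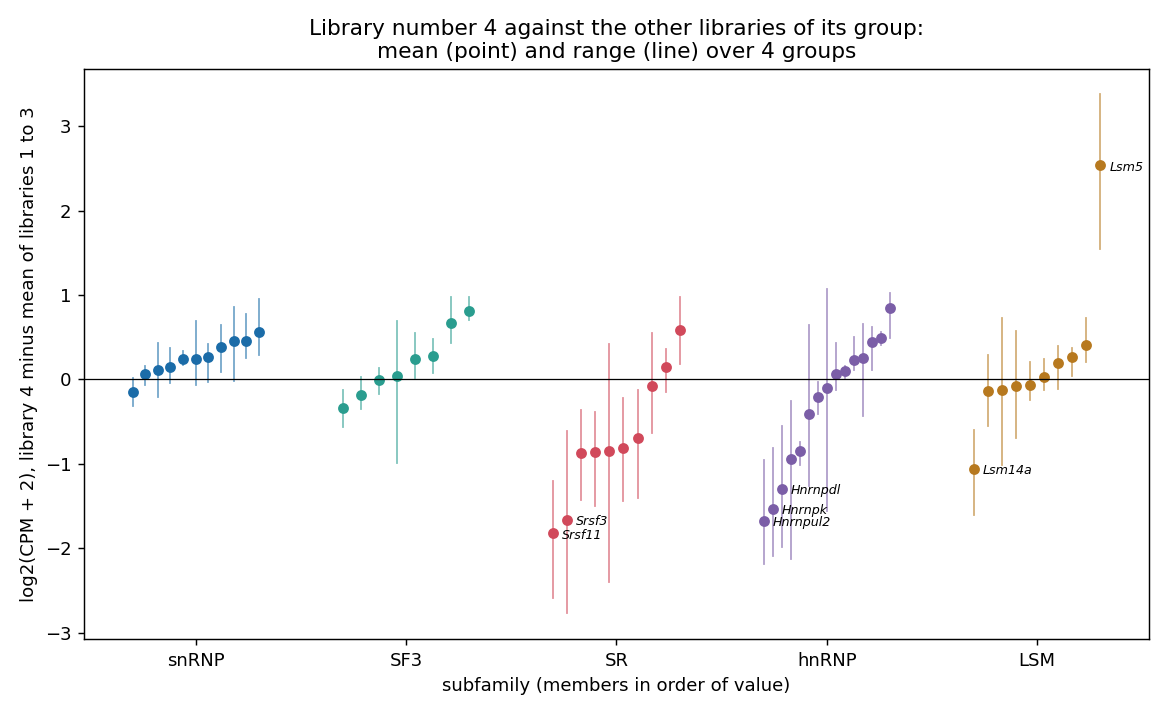
For each splicing gene tested, log2(CPM + 2) in library 4 minus the mean of libraries 1 to 3 of the same group, as the mean (point) and range (line) over the 4 groups, by subfamily. Most SR genes lie below 0 (median -0.82) and most snRNP genes above it (median 0.24), and Lsm5 is far above.

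Promoter sequences are shown for 4 genes that rose in LZ cells, 2 snRNP and 2 SF3 genes, since members that move together invite a look at what their promoters share. The windows are RefSeq's for GRCm38.p6, from 250 bases before to 50 after the start, 300 bases, 5′ to 3′ on the gene's strand. RefSeq windows were matched for 53 of the 60 genes. Snrpb, Snrpd1, Sf3b4, Sf3b5, Lsm4, Lsm12 and Hnrnpul2 had no entry. Capitals mark CACGTG, the E-box form that Myc with Max is known to bind, and CCGGAAG, which holds the core that ETS factors are known to bind and is written CTTCCGG when it runs the other way. For a gene with several windows, the window with the most CACGTG is shown. Snrpa is the only snRNP gene with CACGTG in a window, and Snrpa1, which also rose, held neither motif and is not shown. The 4 windows therefore do not stand for all the genes that rose.
Snrpd3, chr10:75517792-75518091, plus strand: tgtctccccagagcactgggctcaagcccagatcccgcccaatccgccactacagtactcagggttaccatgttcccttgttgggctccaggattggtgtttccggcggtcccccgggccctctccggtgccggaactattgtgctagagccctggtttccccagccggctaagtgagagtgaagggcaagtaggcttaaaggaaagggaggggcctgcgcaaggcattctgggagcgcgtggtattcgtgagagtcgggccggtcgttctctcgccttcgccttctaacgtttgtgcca
Snrpa, chr7:27196222-27196521, minus strand: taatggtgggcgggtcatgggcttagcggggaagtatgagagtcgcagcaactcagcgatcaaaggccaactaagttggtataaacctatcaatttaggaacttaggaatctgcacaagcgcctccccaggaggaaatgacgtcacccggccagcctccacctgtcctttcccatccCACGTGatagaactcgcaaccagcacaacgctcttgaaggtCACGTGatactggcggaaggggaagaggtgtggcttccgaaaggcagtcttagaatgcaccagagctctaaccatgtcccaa
Sf3a3, chr4:124714611-124714910, plus strand: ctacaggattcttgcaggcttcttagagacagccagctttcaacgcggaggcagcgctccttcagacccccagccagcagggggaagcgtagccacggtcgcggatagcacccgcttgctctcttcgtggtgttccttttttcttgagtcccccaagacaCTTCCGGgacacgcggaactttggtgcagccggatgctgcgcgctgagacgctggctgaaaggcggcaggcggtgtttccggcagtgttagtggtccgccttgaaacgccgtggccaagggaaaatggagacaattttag
Sf3b3, chr8:110846754-110847053, minus strand: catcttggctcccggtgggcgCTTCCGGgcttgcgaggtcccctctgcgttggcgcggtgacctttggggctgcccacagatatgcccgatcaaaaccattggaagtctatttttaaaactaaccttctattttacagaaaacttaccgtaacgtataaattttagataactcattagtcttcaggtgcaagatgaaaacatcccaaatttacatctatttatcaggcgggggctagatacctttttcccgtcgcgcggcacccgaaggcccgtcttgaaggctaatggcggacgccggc

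The Snrpa window held CACGTG at 2 positions, 73 and 32 bases before the start. Sf3a3 held CCGGAAG 90 bases before the start and Sf3b3 229 bases before it, both in the opposite orientation, and the Snrpd3 window held neither motif. RefSeq's start of Snrpd3 lies inside the gene as GENCODE gives it, so that its window does not cover the bases before the GENCODE start. Searched on both strands, CACGTG was in a window of 6 of 53 splicing genes (11.3%), against 8.09% of all 27025 genes with windows and 8.91% of the protein coding ones. CCGGAAG was in 17 of 53 (32.1%), against 9.93% and 12.9%. TATAAA, searched as a contrast, was in 6 of 53 (11.3%), against 15.7% and 14.8%. No motif is contained in another. No share was taken over only the genes detected in these cells, so whether the CCGGAAG share is particular to splicing genes was not tested. By subfamily, CCGGAAG was in 6 of 7 SF3 genes, 4 of 9 snRNP genes, 4 of 10 SR genes, 2 of 17 hnRNP genes and 1 of 10 LSM genes, and CACGTG in 5 of 17 hnRNP genes and 1 of 9 snRNP genes. Of the genes that rose in LZ cells, 8 had a window, and CACGTG was in 1, CCGGAAG in 2 and TATAAA in 3 (37.5%). These are matches of letters and say nothing of binding.

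In LZ cells, anti-CD40 raised 11 of the 54 splicing genes and lowered 1 (edgeR quasi-likelihood test, Benjamini-Hochberg adjusted over 6824 genes, threshold 0.05). That is 20.4% higher, against a background of 10.8% of all genes tested higher and 8.24% lower. The background was not matched for level or precision. The median level was 158.9 CPM for the splicing genes and 46.0 CPM for all genes. The median standard error of the log2 fold change was 0.24 against 0.30. The 11 were Snrpd3, Snrpa1, Snrpb, Snrpd1, Snrpa, Sf3b3, Sf3a3, Hnrnpab, Hnrnpa1, Lsm7 and Lsm12, and the 1 that fell was Hnrnph3. The median log2 fold change over the 54 was 0.43, against 0.01 for all genes, and 45 of 54 (83.3%) were above 0, against 50.4%. At an unadjusted p under 0.05, 23 were higher and 1 lower, against 16.5% and 14.6% of all genes. Every anti-CD40 library lay above every isotype library for 12 of 54, against 11.4% of all genes, and below for 0, against 9.03%.

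By subfamily, 5 of 11 snRNP genes rose (45.5%, median 0.53), 2 of 8 SF3 genes (25%, 0.55) and 0 of 10 SR genes (0%, 0.30). Of 15 hnRNP genes, 2 rose and 1 fell (13.3% higher, 0.36), and 2 of 10 LSM genes rose (20%, 0.21). The background was 10.8% of all genes, and the hnRNP share was near it. The precision differed among them: the median standard error of the log2 fold change was 0.19 for snRNP and SF3 genes, 0.26 for LSM, 0.32 for hnRNP and 0.39 for SR genes. The median biological coefficient of variation was 19.2% for snRNP, 18.8% for SF3, 22.8% for LSM, 27.2% for hnRNP and 34.3% for SR genes, against 22.2% for all genes. The count of SR genes that passed was thus made at the widest error, and the subfamilies were not tested against each other. Without the libraries numbered 4, 8 genes rose and 1 fell (14.5% higher, against 9.64% of all genes). The 8 were Hnrnpc, Lsm7, Sf3a2, Snrpa, Snrpa1, Snrpd1, Snrpd3 and Snrpf, 5 of which were among the 11, and the medians became 0.49 for snRNP, 0.40 for SF3, 0.16 for SR, 0.11 for hnRNP and 0.25 for LSM genes. The count of 11 also depended on single libraries. It was 4, 5 and 7 without isotype LZ library 1, 2 or 3 (7.41%, 9.26% and 13%, against 8.42%, 9.07% and 8.12% of all genes). It was 7, 3 and 6 without anti-CD40 LZ library 1, 2 or 4 (13%, 5.56% and 11.1%, against 8.86%, 6.98% and 8.53%). Without isotype LZ library 1 or anti-CD40 LZ library 2, the share was thus below that of all genes. With the replicate number as a block in the fit, the count was 23 (42.6%, against 16.5% of all genes).

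**Figure D2:**
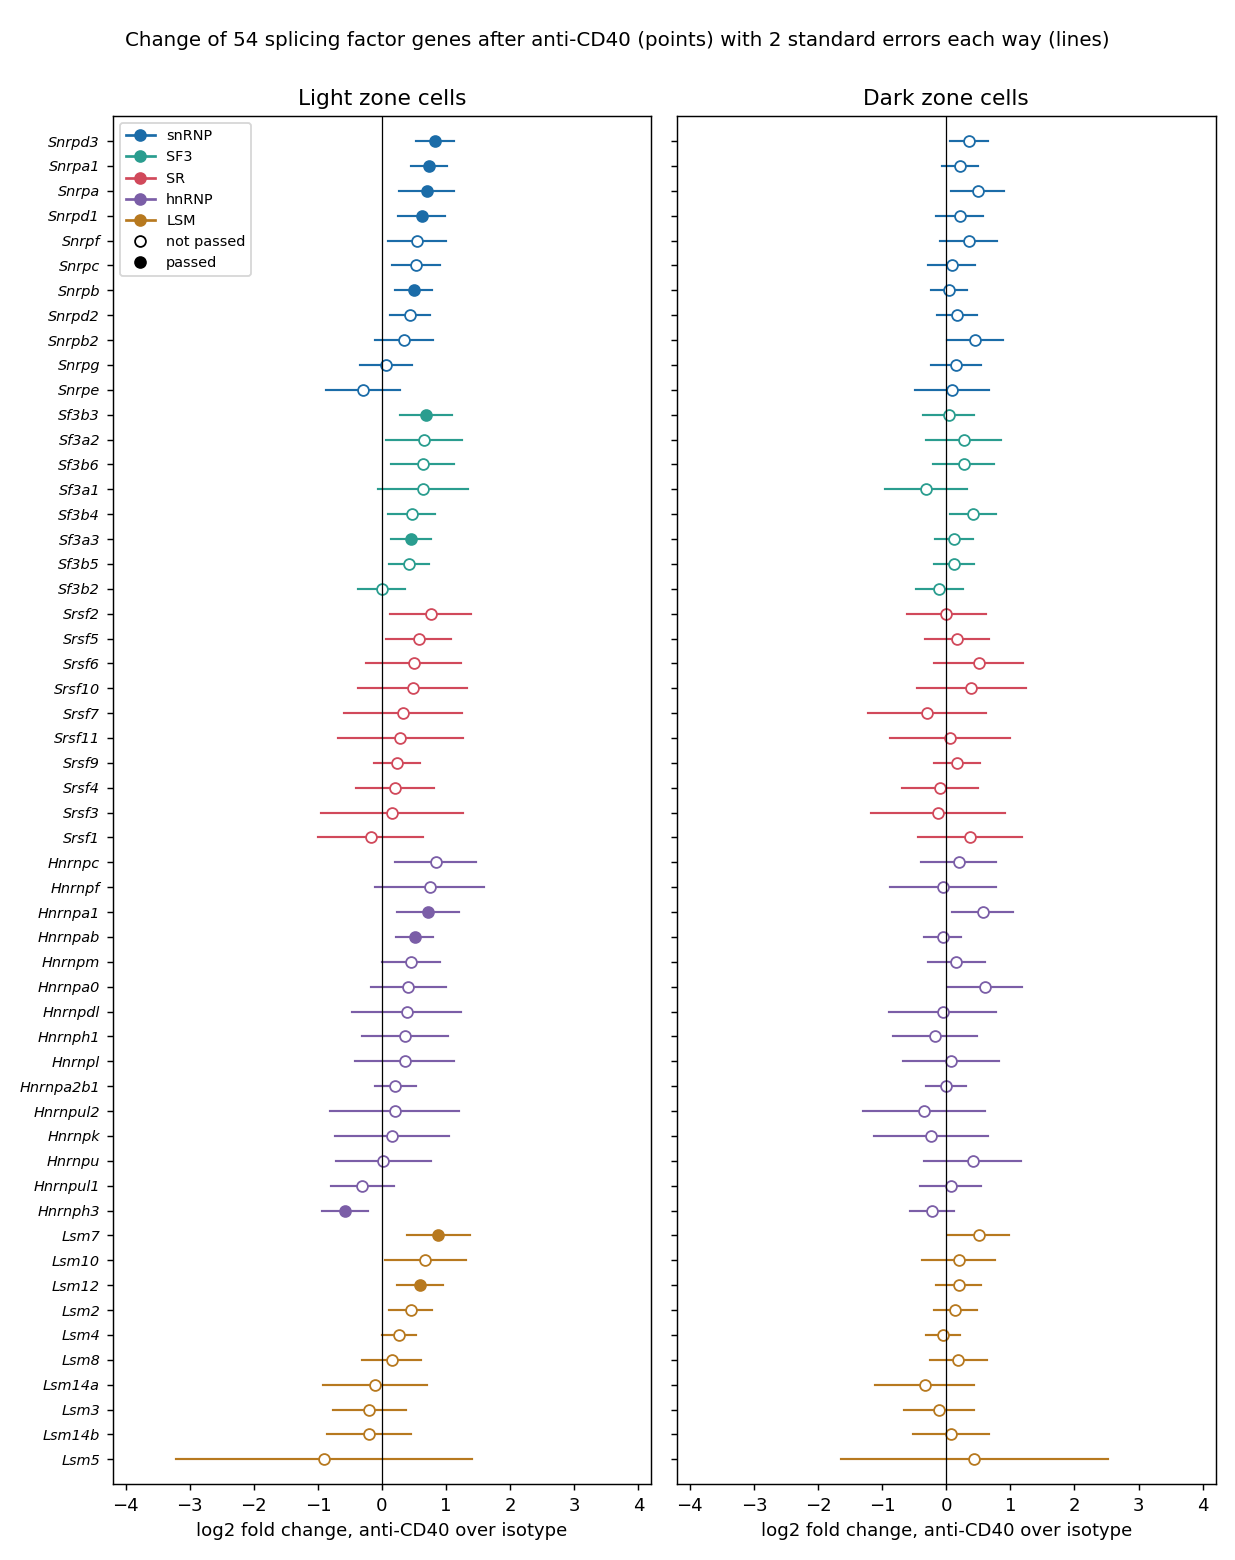
Log2 fold change of anti-CD40 over isotype for the 54 splicing genes tested, in LZ cells (left) and DZ cells (right), ordered within each subfamily, with lines of 2 standard errors each way. Filled points passed an adjusted p under 0.05: 11 to the right of 0 and Hnrnph3 to the left in LZ cells, and 0 in DZ cells.

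The summed level of all tested splicing genes was 10571 ± 307 CPM in isotype LZ libraries, 14070 ± 1231 CPM in anti-CD40 LZ libraries, 10932 ± 269.6 CPM in isotype DZ libraries and 11740 ± 311 CPM in anti-CD40 DZ libraries (mean ± SD, n = 4 each). The lowest anti-CD40 LZ library, at 12832 CPM, lay above the highest isotype LZ library, at 10879 CPM. The snRNP sum went from 3690 ± 567.5 to 5164 ± 656 CPM in LZ cells, and the ranges overlapped, because isotype library 4 was at 4518 CPM and the lowest anti-CD40 library at 4356 CPM. The SF3 sum went from 1248 ± 30.9 to 1691 ± 222 CPM and the LSM sum from 1526 ± 43.0 to 1875 ± 187 CPM, with no overlap in either. The hnRNP sum went from 2777 ± 346 to 3489 ± 375 CPM, with overlap. The SR sum went from 1330 ± 400.2 to 1852 ± 198 CPM, and overlapped too: the isotype libraries were at 737 CPM in number 4 and 1467 to 1614 CPM in the others, and the lowest anti-CD40 library was at 1599 CPM.

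**Figure D3:**
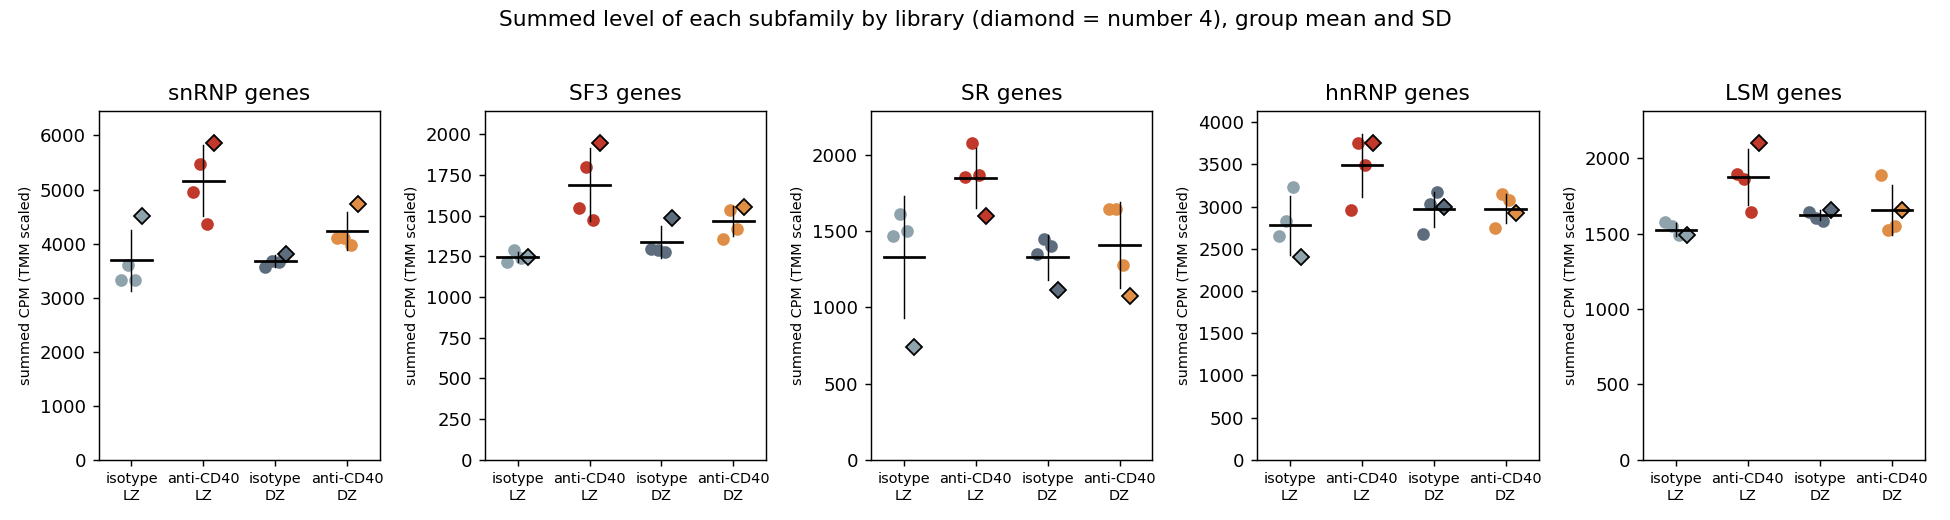
Summed CPM (TMM scaled) of the tested genes of each subfamily in each of the 16 libraries, by group, with the group mean and SD and library 4 as a diamond. The mean sum of every subfamily is highest in anti-CD40 LZ cells, although some single libraries overlap with those of other groups. The SR sum of isotype LZ library 4 (737 CPM) lies apart from the other 3.

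Among the core snRNP genes, the clearest rise was that of Snrpd3, which encodes Sm protein D3 (GRCm38 chr10:75517551-75537381). Its level was 189.4, 230.8, 255.4 and 243.4 CPM in the isotype LZ libraries and 397.6, 414.7, 324.6 and 489.2 CPM after anti-CD40. All 4 treated libraries lay above all 4 controls. The log2 fold change was 0.82 (SE 0.15, adjusted p = 8.05e-04), and it was 0.73 (adjusted p = 0.00425) without the libraries numbered 4.

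Snrpa1, whose product is a protein of the U2 snRNP (chr7:66059003-66074587), was at 233.8, 264.2, 223.7 and 239.9 CPM in isotype LZ cells and 428.1, 432.1, 310.0 and 427.4 CPM after anti-CD40. The groups did not overlap, with the third treated library below its 3 neighbours. The rise was 0.73 on the log2 scale (SE 0.14, adjusted p = 0.00140). Snrpd3 and Snrpa1 passed in all 24 alternative analyses that were run, the only 2 of the 12 that did.

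Snrpb, which encodes the Sm proteins B and B′, was at 634.2, 822.8, 788.6 and 596.1 CPM and then at 984.5, 1178, 895.0 and 943.5 CPM. The groups were separate, with a log2 fold change of 0.49 (SE 0.14, adjusted p = 0.0202), or 0.43 without the libraries numbered 4, where it did not pass (adjusted p = 0.0705). Snrpd1, which encodes Sm protein D1, was at 310.4, 310.3, 341.2 and 550.3 CPM and then at 525.9, 542.5, 526.4 and 726.6 CPM (0.62, SE 0.18, adjusted p = 0.0233). Library 4 was the highest in both of these groups, so that the fourth isotype library lay above 3 treated ones, and the rise without the libraries numbered 4 was 0.71 (adjusted p = 0.00194).

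Snrpa, which encodes a protein of the U1 snRNP (chr7:27187005-27196271), was at 99.4, 132.1, 136.1 and 158.7 CPM and then at 131.5, 255.5, 207.4 and 256.4 CPM. The first treated library lay within the isotype range and the other 3 above it, and the log2 fold change was 0.70 (SE 0.21, adjusted p = 0.0270). Snrpb did not pass without isotype LZ library 1 (log2 fold change 0.40) or 4 (0.42) or anti-CD40 LZ library 2 (0.37). Snrpa did not pass without isotype LZ library 1 (0.53), 2 (0.70) or 3 (0.67) or anti-CD40 LZ library 2 (0.56) or 4 (0.60). Snrpd1 did not pass without isotype LZ library 1 (0.48), 2 (0.53) or 3 (0.52), anti-CD40 LZ library 1 (0.62), 2 (0.61) or 4 (0.50), isotype DZ library 3 (0.57), or anti-CD40 DZ library 2 (0.58) or 3 (0.57).

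Over the 7 Sm ring genes, 3 rose (Snrpb, Snrpd1 and Snrpd3) and 0 fell, against 10.8% and 8.24% of all genes. The log2 fold changes ran from -0.30 to 0.82 with a median of 0.49. The lowest was that of Snrpe (-0.30, SE 0.29, adjusted p = 0.533), with 173.4 to 319.2 CPM in isotype and 113.8 to 254.8 CPM in anti-CD40 libraries. Snrpg was at 0.06 (SE 0.20, adjusted p = 0.873). Snrpd2 was at 0.44 (adjusted p = 0.0580), Snrpf at 0.55 (adjusted p = 0.0988) and Snrpc, which encodes another U1 protein, at 0.53 (adjusted p = 0.0519), and none of them passed. Snrpb2, which encodes a U2 protein, was at 0.35 (adjusted p = 0.328). Snrpe, Snrpg and Hnrnpa1 have pseudogenes and Snrpb has the close paralog Snrpn, and how such reads were assigned is not given in the sources used here, so their counts are less certain.

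**Figure D4:**
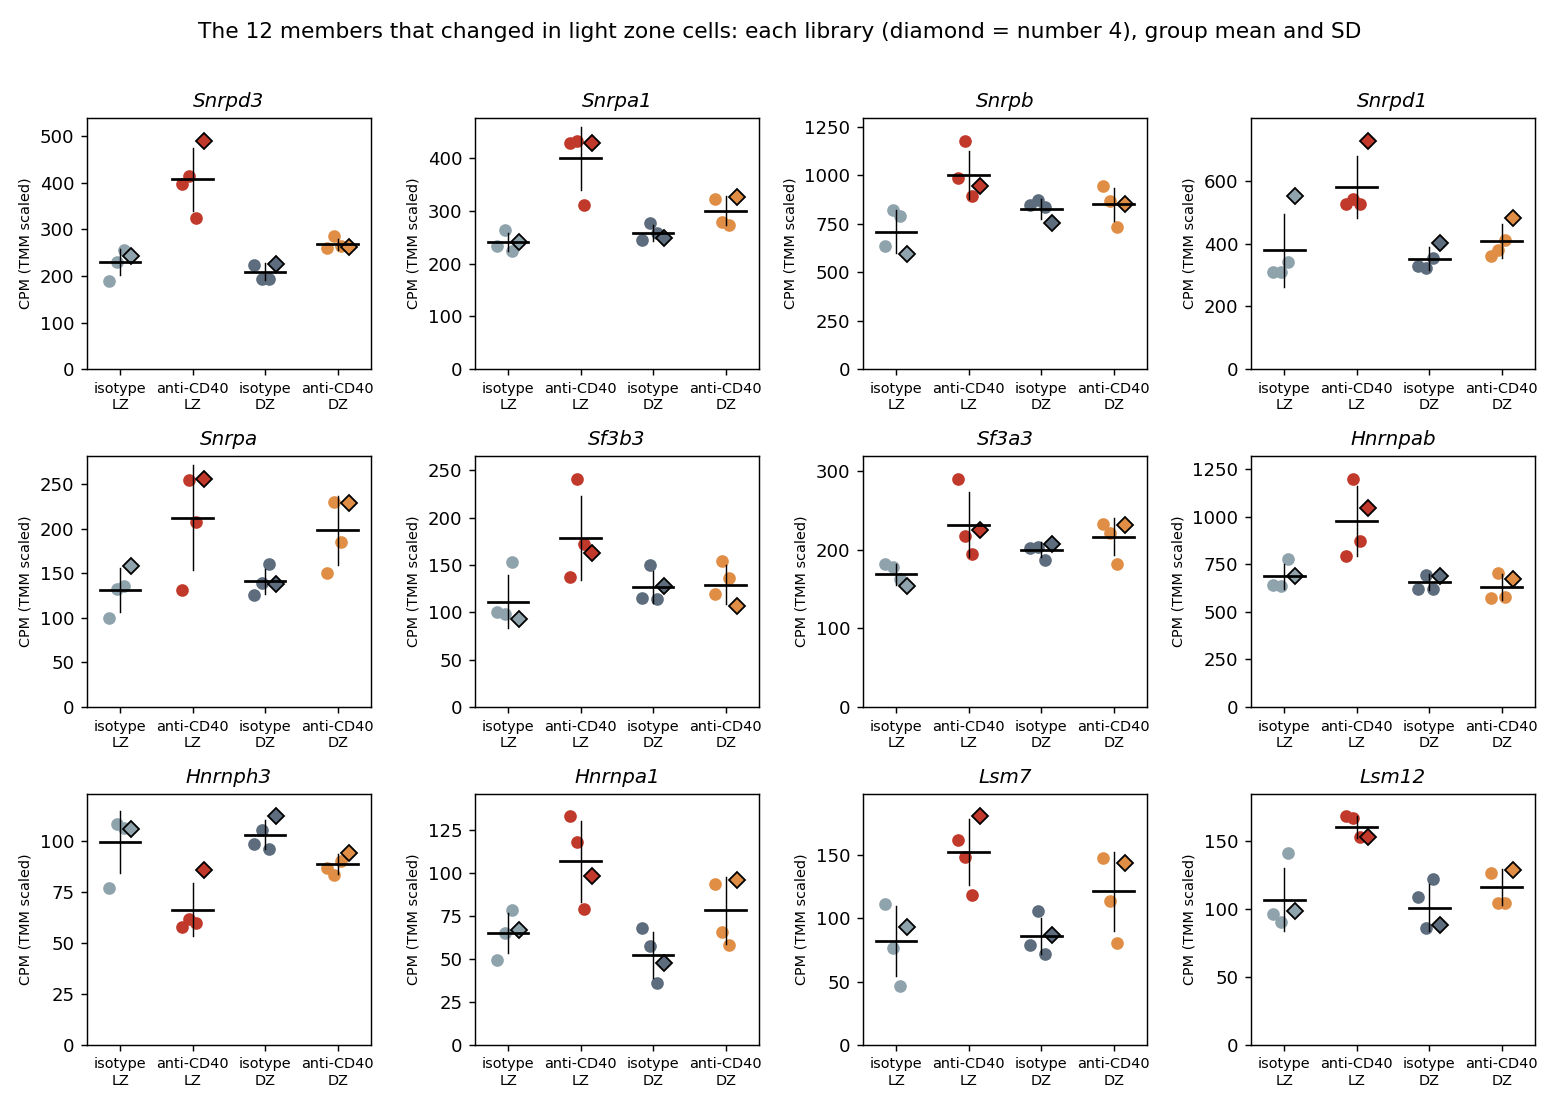
CPM (TMM scaled) of the 12 splicing genes that changed in LZ cells, in each of the 16 libraries by group, with the group mean and SD and library 4 as a diamond. Anti-CD40 LZ libraries are above all isotype LZ libraries for Snrpd3, Snrpa1, Snrpb, Sf3a3, Hnrnpab, Hnrnpa1, Lsm7 and Lsm12, and Hnrnph3 is lower on average after anti-CD40.

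Of the SF3 genes, Sf3b3 and Sf3a3 rose. Sf3b3, a scaffold subunit of SF3b (chr8:110810239-110846787), was at 100.8, 98.7, 152.9 and 93.5 CPM in isotype LZ libraries and 137.9, 241.3, 172.5 and 163.1 CPM after anti-CD40. The third isotype library was above the first treated one, and the log2 fold change was 0.68 (SE 0.20, adjusted p = 0.0239). Sf3a3, the SF3a60 gene (chr4:124714776-124732460), was at 181.4, 178.2, 162.2 and 153.4 CPM and then at 290.2, 217.6, 193.9 and 224.8 CPM, without overlap (0.45, SE 0.15, adjusted p = 0.0438). Sf3b3 did not pass without isotype LZ library 1 (0.60), 2 (0.63) or 4 (0.61) or anti-CD40 LZ library 2 (0.48). Sf3a3 was close to the threshold: it passed in 4 of 24 alternatives, with log2 fold changes from 0.30 to 0.53 and adjusted p up to 0.216, and of the 16 single libraries, only anti-CD40 LZ library 3 could be left out with the call kept. Without the libraries numbered 4 neither passed: Sf3b3 was at 0.64 (adjusted p = 0.0530) and Sf3a3 at 0.40 (adjusted p = 0.142). The other 6 SF3 genes tested ran from -0.01 for Sf3b2, to 0.66 for Sf3a2, and 5 of them were above 0.

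No SR gene passed in LZ cells in the fit of 4 group means (0 of 10 by edgeR and 0 by DESeq2). At an unadjusted p under 0.05, 2 were higher and 0 lower, against 16.5% and 14.6% of all genes. Srsf2, the SC35 gene, had the smallest p: it was at 298.3, 491.8, 341.2 and 128.8 CPM in isotype LZ libraries and 543.6, 592.9, 564.7 and 432.2 CPM after anti-CD40. Only the second isotype library reached the treated range. The log2 fold change was 0.76, with an interval of 2 standard errors from 0.12 to 1.40 (adjusted p = 0.108). It passed without isotype LZ library 2 (1.06). With the replicate number as a block, Srsf2 and Srsf5 passed. Without the libraries numbered 4, Srsf2 was at 0.57 (edgeR adjusted p = 0.0821). The other 9 SR genes, Srsf1, Srsf3 to Srsf7 and Srsf9 to Srsf11, ran from -0.17 to 0.57, and 8 of them were above 0. For 2 of the 10, Srsf5 and Srsf6, all treated libraries were above all isotype libraries, against 11.4% of all genes. The interval of every SR gene other than Srsf2 and Srsf5 included 0, and a rise as large as that of Snrpd3 lay inside the interval of all but Srsf1, Srsf4 and Srsf9.

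Among the hnRNP genes, 2 rose and 1 fell, and the 13.3% that rose was near the 10.8% of all genes. Hnrnpab, an A/B type hnRNP gene (chr11:51600100-51606847), was at 639.6, 635.0, 779.3 and 689.6 CPM in isotype LZ libraries and 792.1, 1198, 869.1 and 1046 CPM after anti-CD40. The groups were separate by a small margin, and the log2 fold change was 0.51 (SE 0.15, adjusted p = 0.0188). Hnrnpa1, which represses many splice sites (chr15:103240432-103246692), was at 49.7, 65.2, 78.3 and 67.0 CPM and then at 133.1, 118.3, 78.9 and 98.1 CPM (0.72, SE 0.24, adjusted p = 0.0438). The third libraries of the groups were nearly equal. Hnrnpab did not pass without isotype LZ library 1 (0.43) or 2 (0.47) or anti-CD40 LZ library 2 (0.36) or 4 (0.48). Hnrnpa1 passed in 5 of 24 alternatives, with log2 fold changes from 0.56 to 0.85 and adjusted p up to 0.161. Of single libraries, only anti-CD40 LZ library 3 or isotype DZ library 1 could be left out with its call kept. Without the libraries numbered 4 neither passed: Hnrnpab was at 0.46 (adjusted p = 0.0649) and Hnrnpa1 at 0.76 (adjusted p = 0.0572).

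Hnrnph3, of the F and H family whose members bind runs of guanine, fell. It was at 76.6, 108.2, 106.3 and 105.8 CPM in isotype LZ libraries and 57.7, 61.5, 59.7 and 85.5 CPM after anti-CD40. The groups overlapped through the first isotype and the fourth treated library, and the log2 fold change was -0.58 (SE 0.18, adjusted p = 0.0281), or -0.71 (adjusted p = 0.0203) without the libraries numbered 4. It did not pass without isotype LZ library 2 (-0.54), 3 (-0.59) or 4 (-0.55) or anti-CD40 LZ library 1 (-0.56), 2 (-0.59) or 3 (-0.53). The other 2 tested members of its family ran the other way without passing: Hnrnph1 was at 0.36 (adjusted p = 0.524) and Hnrnpf at 0.74 (adjusted p = 0.255). The remaining 12 hnRNP genes that did not pass, those 2 included, ran from -0.31 for Hnrnpul1 to 0.84 for Hnrnpc. Standard errors among the 15 reached 0.50, for Hnrnpul2.

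Of the LSM genes, Lsm7, part of the ring on U6, was at 111.5, 76.4, 46.6 and 93.5 CPM in isotype LZ libraries and 162.0, 148.2, 118.4 and 180.5 CPM after anti-CD40. The groups were separate (log2 fold change 0.88, SE 0.25, adjusted p = 0.0163), and the call was lost without isotype LZ library 3 (0.65) or anti-CD40 LZ library 4 (0.79). Lsm12, which is not part of that ring, was at 96.7, 90.7, 141.7 and 98.8 CPM and then at 168.4, 167.2, 153.3 and 153.6 CPM (0.59, SE 0.18, adjusted p = 0.0250). It did not pass without isotype LZ library 1 (0.50), 2 (0.52) or 4 (0.56) or anti-CD40 LZ library 1 or 2 (0.54 each), nor without the libraries numbered 4 (0.56, adjusted p = 0.0621). Over the 6 tested genes of the LSM2 to LSM8 ring, 1 rose, against 10.8% of all genes. The log2 fold changes ran from -0.91 to 0.88 with a median of 0.21. The lowest was that of Lsm5, at 1.59 to 72.3 CPM in isotype and 0 to 20.6 CPM in anti-CD40 LZ libraries (SE 1.15, adjusted p = 0.660). Lsm10, which is part of the U7 snRNP that processes histone mRNA, was at 0.67 (SE 0.32, adjusted p = 0.151).

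In DZ cells, 0 splicing genes passed in either direction (edgeR), against 2.24% of all genes higher and 0.147% lower. DESeq2 also called 0. At an unadjusted p under 0.05, 5 were higher and 0 lower, against 7.71% and 3.22% of all genes. The 54 genes had a median log2 fold change of 0.13, against -0.01 for all genes, and 39 were above 0 (72.2%, against 48.6%). All 11 snRNP genes were above 0, with a median of 0.21. The medians were 0.12 for SF3, 0.11 for SR, 0.00 for hnRNP and 0.16 for LSM genes, and that of the hnRNP genes was below 0 under other library scalings (RLE or upper quartile factors). Without the libraries numbered 4 the medians were 0.19 for snRNP, 0.14 for SF3, 0.15 for SR, 0.15 for hnRNP and 0.11 for LSM genes. All treated libraries lay above all isotype libraries for 2 of 54 genes and below for 1, against 4.95% and 2.4% of all genes.

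Snrpd3 had the smallest p of the splicing genes in DZ cells. It was at 223.5, 193.5, 194.3 and 225.0 CPM in isotype libraries and 259.5, 285.7, 263.8 and 262.2 CPM after anti-CD40, and the groups did not overlap. The log2 fold change was 0.36, with an interval of 2 standard errors from 0.06 to 0.66 (adjusted p = 0.340). Hnrnpa1 was at 36.1 to 67.8 CPM in isotype and 57.9 to 96.3 CPM in anti-CD40 libraries (0.57, SE 0.24, adjusted p = 0.347). Sf3b4, which encodes an SF3b subunit, was at 121.2 to 135.6 CPM and then 156.3 to 190.5 CPM (0.42, SE 0.18, adjusted p = 0.362), again without overlap. Lsm7 was at 0.50 (SE 0.24, adjusted p = 0.448), and Srsf6, with the smallest p among SR genes, at 0.51 (SE 0.35, adjusted p = 0.724). Of the 12 genes that changed in LZ cells, Snrpb (0.04), Sf3b3 (0.04) and Hnrnpab (-0.05) had DZ changes near 0, and Hnrnph3 was at -0.22 (adjusted p = 0.789) with all treated libraries below all isotype ones.

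The difference between the zones was tested directly as an interaction, and 0 splicing genes passed in either direction, against 0% of all genes higher and 0.0147% lower. DESeq2 also called 0. At an unadjusted p under 0.05, 5 had a larger change in LZ cells (Hnrnpab, Snrpa1, Sf3b3, Snrpb and Snrpd3) and 0 a smaller one, against 3.8% and 4.79% of all genes. The median difference over the 54 was 0.29 (LZ minus DZ, log2), against 0.00 for all genes, and 41 of 54 were above 0, against 50% of all genes. The difference was 0.56 for Hnrnpab (interval of 2 standard errors 0.15 to 0.98, adjusted p = 0.414), 0.51 for Snrpa1 (0.11 to 0.91, adjusted p = 0.463) and 0.65 for Sf3b3 (0.08 to 1.22, adjusted p = 0.530). Srsf2 was at 0.76 (-0.14 to 1.65) and Lsm4 at 0.32 (SE 0.19), each with an adjusted p of 0.675. A change that passed in LZ cells and not in DZ cells was thus not shown to differ between the zones for any splicing gene.

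Between the zones under the isotype antibody, 0 splicing genes passed, against 1.29% of all genes higher in the LZ and 0.938% lower. At an unadjusted p under 0.05, 1 was higher (Hnrnpu) and 0 lower, against 6.9% and 5.14%, and the median log2 difference of LZ over DZ was -0.03, with 23 of 54 genes above 0 (42.6%, against 51.8%). DESeq2 also called 0. Hnrnpu, which encodes a nuclear scaffold hnRNP, was at 15.9 to 53.7 CPM in LZ and 11.3 to 30.0 CPM in DZ libraries (0.90, SE 0.38, adjusted p = 0.323). The smallest p of the other subfamilies belonged to Srsf1 (0.77, adjusted p = 0.489), Sf3a1 (-0.62, adjusted p = 0.498), Lsm10 (-0.53, adjusted p = 0.535) and Snrpb (-0.22, adjusted p = 0.602). All DZ libraries lay above all LZ libraries for 2 of 54 genes, Sf3a3 and Lsm4, against 3.85% of all genes, and the reverse held for 0, against 4.32%.

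Under anti-CD40, 2 splicing genes were higher in the LZ than in the DZ and 0 lower, 3.70% of the 54, against 6.14% and 5.38% of all genes, so the share that passed was below the background. This comparison shares its LZ libraries with the anti-CD40 comparison in LZ cells, and the results are not independent. Hnrnpab was at 792.1 to 1198 CPM in LZ and 569.8 to 702.3 CPM in DZ libraries (0.63, SE 0.15, adjusted p = 0.00716). Snrpd3 was at 324.6 to 489.2 CPM in LZ and 259.5 to 285.7 CPM in DZ libraries (0.60, SE 0.15, adjusted p = 0.0114). In both genes the zones did not overlap, as was so for 4 of 54 genes in this direction and 0 in the other, against 8.59% and 7.62% of all genes. Snrpd3 did not pass without the libraries numbered 4 (0.45, adjusted p = 0.0804), without anti-CD40 LZ library 2 (0.55) or without anti-CD40 DZ library 1 (0.53) or 3 (0.55), and Hnrnpab did not pass without anti-CD40 LZ library 2 (0.48). The median over the 54 genes was 0.25, against 0.03 for all genes, and 46 were above 0 (85.2%, against 52.6%). At an unadjusted p under 0.05, 7 were higher and 1 lower, against 13.3% and 11.5% of all genes. Values that did not pass were those of Lsm2 (0.52, adjusted p = 0.0519), Sf3b3 (0.46, adjusted p = 0.156) and Srsf2 (0.63, adjusted p = 0.226).

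Other genes of the splicing pathway are given here in 7 lists, written from general knowledge with earlier results of these data known. They are set against the 10.8% of all genes that were higher and the 8.24% that were lower in LZ cells. The lists were not tested against each other. The list of U snRNP and tri-snRNP proteins also held other early splicing factors, U2af1 and U2af2 among them. Of its 30 tested genes, 10 rose (33.3%) and 0 fell (median log2 fold change 0.36). U2af1 and U2af2 encode the factor that reads the 3′ splice site. U2af1 rose from 133.6 ± 18.7 to 264.6 ± 51.8 CPM (n = 4, log2 fold change 0.98, adjusted p = 0.00180), and U2af2 by 0.67 (adjusted p = 0.00307). Snu13, a protein of the U4 snRNA, rose from 78.4 ± 14.7 to 164.3 ± 26.0 CPM (1.07, adjusted p = 0.00224).

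Of 20 tested genes of snRNP assembly and methylation, 2 rose and 0 fell (median 0.56), and the 10% that rose was near the background of 10.8%. Both encode arginine methyltransferases. Prmt5, which methylates Sm proteins before the ring is assembled, was at 153.2, 165.5, 102.5 and 181.7 CPM in isotype LZ libraries and 283.8, 323.3, 240.1 and 421.1 CPM after anti-CD40 (1.07, SE 0.23, adjusted p = 0.00305). All treated libraries lay above all controls. Prmt5 also rose in DZ cells, from 119.0, 107.4, 128.2 and 154.6 to 193.8, 229.8, 191.4 and 356.4 CPM (0.92, SE 0.23, adjusted p = 0.0330), and it was the only gene of the 7 lists to pass there. Prmt1 rose in LZ cells from 270.8 ± 33.1 to 489.6 ± 81.0 CPM (n = 4, 0.85, adjusted p = 0.00369).

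Among 22 tested genes of SR protein kinases, transport and co-activators, 1 rose (4.55%) and 0 fell (median 0.07). It was Srpk1, a kinase that phosphorylates SR proteins, from 44.5 ± 9.93 to 76.5 ± 19.2 CPM (n = 4, 0.78, adjusted p = 0.0310). Of 35 other RNA binding splicing regulators, 4 rose and 1 fell (median 0.08), and the 11.4% that rose was also near the background. Syncrip, an hnRNP-like gene also called hnRNP Q, rose from 35.2 ± 13.7 to 89.0 ± 12.4 CPM (n = 4, 1.34, adjusted p = 9.56e-04), and Cirbp, a cold-induced RNA binding protein gene, fell from 172.5 ± 47.7 to 105.4 ± 18.2 CPM (n = 4, -0.70, adjusted p = 0.0185). Of 27 genes of the Prpf19 complex and the catalytic step, 1 rose (3.7%, Snw1, 0.71, adjusted p = 0.0128) and 1 fell (Cwc27, -0.68, adjusted p = 0.0300). Of 15 spliceosomal helicases, 0 passed and 0 had an unadjusted p under 0.05 (edgeR, median 0.07). Of 22 genes of the exon junction complex and mRNA export, 1 rose (4.55%, Eif4a3, 0.59, adjusted p = 0.0112).

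Under anti-CD40, 6.14% of all genes were higher in the LZ than in the DZ. Higher were 5 of 30 genes of the U snRNP and tri-snRNP list (16.7%), 1 of 20 assembly and methylation genes (5%), 1 of 35 other RNA binding regulators (2.86%) and 0 of the tested genes of the other 4 lists (edgeR). In those 4 lists, 0 of 15 helicases, 0 of 22 SR kinase, transport and co-activator genes, 1 of 27 Prpf19 complex genes and 1 of 22 exon junction and export genes were higher at an unadjusted p under 0.05. The 5 included U2af2 (0.53, adjusted p = 0.0201), Eftud2, a U5 GTPase (0.60, adjusted p = 0.0234), and Luc7l, a U1 associated protein (0.71, adjusted p = 0.0318). Prmt1 was higher by 0.90 (adjusted p = 0.00340) and Syncrip by 0.80 (adjusted p = 0.0314).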

How the data were processed

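Poly(A) RNA of sorted germinal centre B cells had been barcoded at reverse transcription, pooled, amplified by in vitro transcription and sequenced, per the labels' protocols, in 16 libraries (4 groups of 4). The deposited table holds raw UMI counts per gene, which are the authors' own and were used as deposited. The submitters' processing notes name cutadapt, STAR, HTSeq, DESeq2 and the build mm10. The strand setting and the treatment of reads with several matches are not given in the sources used here.

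Counts were analysed with edgeR 4.0.16 in R 4.3.3: filterByExpr with a minimum count of 10 left 6824 of 9443 genes, holding 98.6% of all UMI, with TMM scaling, a model of 4 group means over 16 libraries, quasi-likelihood tests and Benjamini-Hochberg adjustment over all tested genes in each of 5 comparisons. A gene passed at an adjusted p under 0.05. The test was tried first on simulated counts. CPM are TMM scaled except for the summed cell type markers, which use the library total. Intervals are 2 standard errors each way. Depth was 493131 to 1473415 UMI, and pairs of replicates differed by more than counting error (chi-square over its degrees of freedom, 1.65 to 10.1). Figures used Matplotlib 3.10.9.

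The splicing genes, the pathway lists, the motifs and the markers were chosen with earlier results of these data known. Named genes are those that passed, up to 6 per subfamily, comparison and direction by smallest p. Where none passed, the gene with the smallest p is named, and up to 3 passing genes per pathway list, and Myc always. Other genes named with values complete a complex or were singled out after their values were seen. Gene positions are from GENCODE vM21 and promoter windows from RefSeq (GRCm38.p6). Alternatives were DESeq2 1.42.0, RLE and upper quartile scaling, no and a stricter low-count filter (20 counts in 4 libraries), fits of only the groups compared, a block for the replicate number, single libraries left out, and all libraries numbered 4 left out.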

Additional observations from a re-analysis of the deposited data

Results flagged for a closer look

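Of 104 sets of 4 libraries examined (the genes named and the subfamily sums in each group), 11 held a library far from the other 3 by Dixon's criterion, where chance alone flags about 1 in 20, or 5.2. Libraries numbered 4 gave 5 of them: Snrpd1 at 550 CPM in isotype LZ (the others 310 to 341) and 727 CPM in anti-CD40 LZ (526 to 542), Hnrnph3 at 85.5 CPM in anti-CD40 LZ (57.7 to 61.5), the SR sum at 737 CPM in isotype LZ (1467 to 1614), and the SF3 sum at 1486 CPM in isotype DZ (1280 to 1294).

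Library 3 of isotype LZ was high for Lsm12, at 142 CPM (the others 90.7 to 98.8), and for Sf3b3, at 153 CPM (93.5 to 100.8). Library 3 of anti-CD40 LZ was low for Snrpa1, at 310.0 CPM (427 to 432). Hnrnph3 was low in isotype LZ library 1, at 76.6 CPM (105.8 to 108). In anti-CD40 DZ cells, Lsm4 was at 1095 CPM in library 1 (782 to 831) and Snrpd3 at 286 CPM in library 2 (259 to 264).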

How the results depend on the processing

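Of the 33 changes of named splicing genes, each in the comparison it was named for, those that passed kept their sign in every alternative. For the others, a change of sign was counted only where the gene passed in the alternative, and no such case was found. Whether the sign of those others held was therefore not checked. DZ changes near 0 were not followed in this way, and 35 of the 54 genes were above 0 in DZ cells with upper quartile factors, in place of 39. Of the 11 splicing genes higher in LZ cells after anti-CD40, 6 were called with upper quartile factors (11.1%, against 8.73% of all genes). In a fit of only the LZ groups 3 were called (5.66%, against 8.45%), a share below that of all genes. The 1 lower gene became 0 with no low-count filter and in the fit of only the LZ groups, which has fewer samples behind its spread. Under upper quartile factors the median of all genes in LZ cells moved to -0.10, and the median of the splicing genes stayed 0.42 above it. Higher in the LZ than in the DZ under anti-CD40 were 4 genes by DESeq2 (7.41%, against 6.93% of all genes), in place of 2. In the fit of only those groups 1 was higher (1.89%, against 5.32%), and 1 without the libraries numbered 4 (1.82%, against 6.23%). The median LSM difference between the zones was below 0 under upper quartile factors under both antibodies. The cause of these changes was not tested.

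Leaving out each library in turn gave 3 to 15 higher and 0 to 1 lower genes in LZ cells, 0 in DZ cells, 0 for the difference between zones, 0 between the zones under isotype, and 0 to 4 higher with 0 lower between the zones under anti-CD40 (0 without anti-CD40 LZ library 2, 1 without anti-CD40 DZ library 1 or 3, 3 without anti-CD40 LZ library 3 or anti-CD40 DZ library 4, 4 without isotype LZ library 4). The count of 15 was without anti-CD40 LZ library 3 (27.8%, against 10.5% of all genes) and that of 3 in LZ cells without anti-CD40 LZ library 2 (5.56%, against 6.98%). Between the zones under anti-CD40, the count of 4 was 7.41%, against 7.25% of all genes.

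The replicate numbers are not explained in the labels, and same-numbered libraries did not all deviate together. The libraries numbered 4 did. They correlated with each other at 0.49 to 0.66 over all pairs of groups, each time best with their own number. Of 4 same-numbered pairs, those correlated above 0.1 were 2 between isotype and anti-CD40 LZ (0.01 to 0.49), 3 between isotype and anti-CD40 DZ (-0.21 to 0.58), 3 between the zones under isotype (0.07 to 0.66), 3 under anti-CD40 (-0.12 to 0.52), 3 between anti-CD40 LZ and isotype DZ (0.02 to 0.58) and 4 between isotype LZ and anti-CD40 DZ (0.18 to 0.66). The libraries that correlated best with their own number were 1, 2, 2, 3, 4 and 3 of 4 in that order. With the replicate number as a block, 23 splicing genes were higher in LZ cells (42.6%, against 16.5% of all genes). The SR genes Srsf2 (0.86, edgeR adjusted p = 0.00213) and Srsf5 were among them. In DZ cells 1 was higher (Snrpa, 1.85%, against 4.88%). Under isotype 1 was lower in the LZ (Hnrnpm), against 2.81% of all genes. Under anti-CD40, 9 were higher in the LZ (16.7%, against 12.7%) and 1 was lower (Hnrnpul1), against 9.8% of all genes.

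Low counts kept the 6 genes from being tested. Lsm5 was highest in library 4 of every group. The SR genes had the widest standard errors of the subfamilies (median 0.39 in LZ cells), and the cause was not tested.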
